A study of Mus musculus with 21 samples.

Results

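The potassium channel genes of the newborn mouse were compared between the subcommissural organ (SCO), a secretory gland of modified ependymal cells that lies in the roof of the third ventricle, and the hippocampus. Members are the protein-coding genes whose symbol is Kcn followed by letters and a closing number, which gave 86 of the 31883 genes of the deposited table in 20 subfamilies. The rule used the symbol and no measured value. It takes in auxiliary subunits as well as the channels that conduct, and it leaves out 7 other Kcn symbols. These are the protein-coding Kcne1l and Kcnrg, and the noncoding Kcnab3os, Kcnd3os, Kcnmb4os1, Kcnmb4os2 and Kcnq1ot1. The values come from bulk RNA sequencing of 9 libraries of postnatal day 0 (P0) C57BL/6 mice, 4 from SCO and 5 from hippocampus, with no genotype or treatment named in the labels. Samples of the older age in the series were not analysed here. Nothing in the labels tells separate animals from pooled ones or from repeat libraries, so each p-value rests on the variation among these libraries, and that variation may be technical only.

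Potassium channels let potassium leave or enter a cell along its electrochemical gradient. They set the resting potential, end the action potential and, in glia and secretory epithelia, move potassium between compartments. The voltage-gated group comprises the delayed rectifiers and A-type channels of the Kcna, Kcnb, Kcnc and Kcnd subfamilies, the M-current channels of the Kcnq subfamily, and the Kcnh channels. The Kcnf, Kcng, Kcns and Kcnv subunits are silent on their own and modify Kcnb channels. The Kcnma, Kcnn, Kcnt and Kcnu channels respond to calcium, sodium or internal pH. Inward rectifiers (Kcnj) and tandem pore channels (Kcnk) hold the resting potential, while Kcnab, Kcne, Kcnip and Kcnmb encode accessory subunits. In the hippocampus, Kcnq3 subunits take part in the M-current that restrains repetitive firing, and Kcnd2 with Kcnip subunits forms the A-type current of dendrites.

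A normalized count is a read count divided by a size factor of its library. Recovered depth was 36787949 to 151009954 reads in hippocampus and 35379988 to 64242533 in SCO, and precision at the low end is given as the worth of 3 reads, at most 4.95 normalized counts in any library. The SCO secretory markers Sspo, Spdef and Car3 summed to 10570 to 30423 in SCO and to 97 to 413 in hippocampus. Markers of cortical and hippocampal excitatory neurons summed to 906 to 3678 in SCO and to 85152 to 99732 in hippocampus. The SCO samples also held neurons, with a neuronal marker sum of 187046 to 392848 against 342711 to 474292. Markers of habenular, thalamic and pretectal neurons summed to 47916 to 84077 in SCO and 1820 to 4665 in hippocampus. In such bulk samples, fewer cells of a type and less RNA per cell cannot be told apart. The part of this neuronal difference in the results on channels was not tested. SCO replicate 4 held most of the Ttr, a choroid plexus transcript, with 171310, and SCO replicate 2 lay apart from the other SCO libraries on the second principal component of all genes. For several calls and means that rest on either library, the value without that library is given beside them.

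Most potassium channel genes did not pass the test between tissues. Of the 83 members whose mean reached 1 in SCO or hippocampus, Kcna5 rose and Kcnq3 fell in SCO at a limma adjusted p under 0.05, that is 2 of 83 or 2.41%, beside 3.05% of all 28150 genes tested. By direction, 1.71% of all genes were called higher and 1.34% lower. The median log2 fold change (SCO minus hippocampus, on the log2(normalized count + 1) scale) was -0.62 over the members and -0.04 over all genes. The size of the member median depended on the setting, at -0.19 by DESeq2, -0.22 by edgeR, -0.32 with the title number as replicate block and -0.96 to -0.39 with 1 library left out. It was negative for 49 members, 59.0% of them, and for 51.4% of all genes. At an unadjusted limma p under 0.05 there were 3 members higher in SCO, 3.61% beside a background of 8.33%, and 15 members lower, 18.1% beside 7.14%. The called members moved with the libraries. Without SCO replicate 2 limma called Kcna1, Kcnh7 and Kcns2 lower and no member higher, where Kcna1 and Kcns2 had lost their only SCO library with reads. Without SCO replicate 4 it called Kcnk1 and Kcnt2 lower. The 3 untested members, Kcna7, Kcnj4 and Kcnk18, had means under 1 in both tissues. For 8 tested members the fold change and the ratio of the means had opposite signs, among them Kcnd2, Kcng2, Kcnj9, Kcnn3, Kcns2 and Kcnt1. The 4 tested members at 0 in a whole tissue (Kcnj13, Kcnj15, Kcnmb3 and Kcne1) have no fitted fold change that can be read as a bound. With them at 3 reads per library the member median was again -0.62. It could not change, since each of them stayed on its own side of the median.

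**Figure D1:**
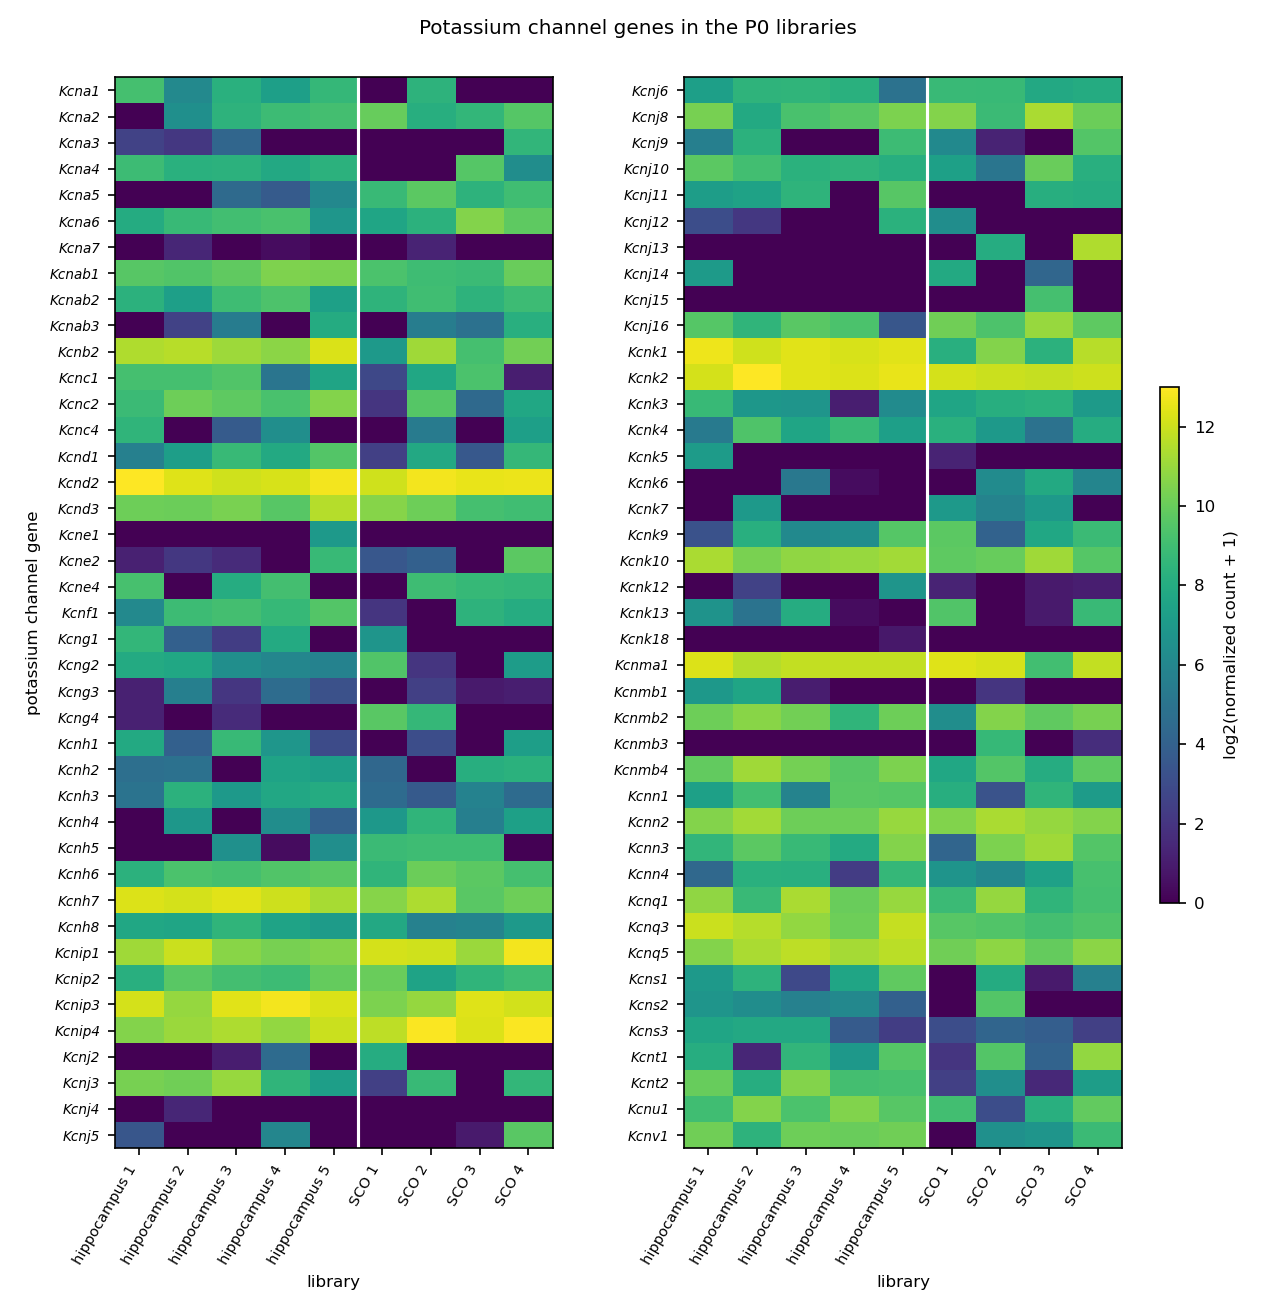
Heat map of 82 potassium channel genes (vertical axis, grouped by subfamily) in the 5 hippocampus and 4 SCO libraries (horizontal axis), with colour giving log2(normalized count + 1). Kcnd2, Kcnip3, Kcnip4 and Kcnk2 stay bright in all 9 libraries, while many other genes are dark in some libraries of a tissue and bright in others.

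**Figure D2:**
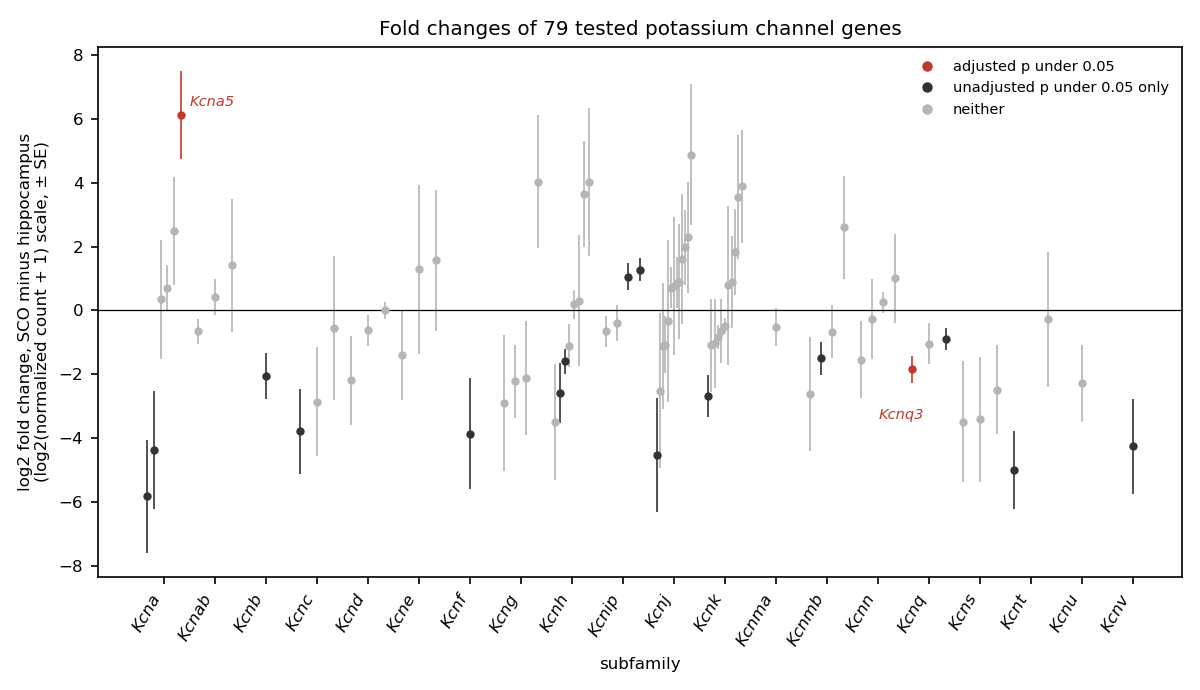
Log2 fold change (SCO minus hippocampus, vertical axis, with SE) of 79 tested members by subfamily (horizontal axis). Kcna5 at 6.12 and Kcnq3 at -1.85 are the members called by limma, and all 3 Kcns genes lie below 0.

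In 4 of the 83 tested members, 4.82%, the values of the tissues did not overlap, beside 8.53% of all genes tested (4.78% higher and 3.75% lower in SCO). They were Kcna5, higher in SCO, and Kcnq3, Kcnk1 and Kcnt2, lower in SCO. Promoters are shown for the 3 of these genes that RefSeq lists (build GRCm38.p6), to give the sequence before the start of the genes whose tissues separated. Each is the 250 bases before the annotated start, 5′ to 3′ on the gene's strand, with CG pairs in capitals. The Kcna5 promoter lies at chr6:126535556-126535805 on the minus strand, that of Kcnk1 at chr8:125994852-125995101 on the plus strand and that of Kcnt2 at chr1:140245468-140245717 on the plus strand.
Kcna5: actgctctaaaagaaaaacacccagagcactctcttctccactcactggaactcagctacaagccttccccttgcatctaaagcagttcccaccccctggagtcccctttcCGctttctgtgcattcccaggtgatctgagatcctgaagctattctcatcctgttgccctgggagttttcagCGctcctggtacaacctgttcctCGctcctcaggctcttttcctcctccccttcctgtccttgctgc
Kcnk1: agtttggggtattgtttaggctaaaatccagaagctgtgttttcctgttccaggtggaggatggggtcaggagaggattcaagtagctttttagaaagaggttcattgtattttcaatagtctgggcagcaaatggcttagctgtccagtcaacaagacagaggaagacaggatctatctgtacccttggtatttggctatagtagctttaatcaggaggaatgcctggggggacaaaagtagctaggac
Kcnt2: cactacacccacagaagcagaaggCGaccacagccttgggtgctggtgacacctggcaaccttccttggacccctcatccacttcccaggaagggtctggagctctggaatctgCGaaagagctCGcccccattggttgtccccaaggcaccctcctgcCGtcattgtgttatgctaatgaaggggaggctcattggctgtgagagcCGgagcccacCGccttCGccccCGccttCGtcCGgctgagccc
The 3 promoters differ in base composition. Kcnt2 has 10 CG pairs and 61.6% GC, Kcna5 has 3 CG pairs and 53.2% GC, and Kcnk1 has 0 CG pairs and 44.4% GC. RefSeq promoters matched 62 of the 86 members by symbol, with 86 promoter entries among 32851 in the table. The median over the members' promoters was 7.5 CG pairs and 58.8% GC, and over all promoters 6 CG pairs and 52.4% GC. The letters TATAAA, searched on both strands, occurred in 3 of the members' promoters, those of Kcnj13, Kcnj16 and Kcnj9, which is 3.49% beside 12.4% of all promoters of this length. These matches describe letters in a window and are not evidence of binding.

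The Kcnq subfamily, which carries the M-current, held the only member called lower. Kcnq3 (ENSMUSG00000056258.9, chr15:65986387-66286642 on the minus strand in GRCm38) measured 3931, 2957, 1892, 1102 and 3670 normalized counts in hippocampus replicates 1 to 5 and 785, 716, 557 and 692 in SCO replicates 1 to 4. Every SCO library lay below every hippocampus library, and the SCO libraries were close to one another. Hippocampus averaged 2711 ± 1197 (SD, n = 5), which is 3.94 times the SCO mean of 687 ± 95.5 (SD, n = 4). Its log2 fold change was -1.85 (with SE 0.41 and adjusted p 0.0395 by limma). The call held at an adjusted p of 0.0149 without hippocampus replicate 4 and was lost without any of the other 8 libraries, with an adjusted p of up to 0.1002.

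Kcnq5, a further M-current subunit, had a log2 fold change of -0.89 (with SE 0.33 and adjusted p 0.212 by limma), from 1546 to 3331 in hippocampus and from 960 to 1770 in SCO. Kcnq1, better known from heart and epithelia, had overlapping ranges of 447 to 2624 and 362 to 1962. Its log2 fold change was -1.04 (with SE 0.64 and adjusted p 0.498 by limma). Kcnq3, Kcnq5 and Kcnq1 thus all had a negative fold change, and of these only that of Kcnq3 passed the test.

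Kcnh channels shape firing and repolarisation. Kcnh7, an Erg channel gene, measured 5179, 4640, 5538, 4147 and 2512 in hippocampus and 1604, 2668, 803 and 1138 in SCO. SCO replicate 2 passed hippocampus replicate 5, so the ranges met there. Its log2 fold change of -1.59 (with SE 0.39) missed the threshold at a limma adjusted p of 0.0562, and it was called without SCO replicate 2 (0.0288) or without hippocampus replicate 5 (0.0429). Leaving out any of the other 7 libraries gave no call of Kcnh7, with limma adjusted p of up to 0.132. Kcnh3, a forebrain channel gene, held 11.8 to 53.9 in SCO and 30.0 to 332 in hippocampus, with a log2 fold change of -2.59 (with SE 0.93 and adjusted p 0.195 by limma). Kcnh5 leaned the other way. It measured 470, 505 and 500 in SCO replicates 1 to 3 and 0 in replicate 4, and 0, 0, 91.8, 0.366 and 85.2 in hippocampus (log2 fold change 4.02, SE 2.31 and adjusted p 0.457 by limma). Kcnh6 was even between tissues, at 363 to 1085 in SCO and 322 to 810 in hippocampus. Kcnh1, Kcnh2 and Kcnh8 overlapped between tissues and stayed at or below 439 in every library. Of 8 Kcnh genes, 4 had a positive and 4 a negative fold change, and 0 were called.

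Among the Shaker-related Kcna genes, which encode fast voltage-gated channels of axons and muscle, Kcna5 rose in SCO. Kcna5 (ENSMUSG00000045534.4, chr6:126532551-126535412 on the minus strand) measured 0, 0, 21.7, 12.4 and 65.8 in hippocampus replicates 1 to 5 and 452, 833, 334 and 515 in SCO replicates 1 to 4. All 4 SCO libraries lay above the highest hippocampus library by a wide margin. A count of 0 allows up to 3.75 normalized counts in hippocampus replicate 1 and 4.95 in replicate 2, for counting error only. The means were 533 ± 213 (SD, n = 4) and 19.99 ± 27.2 (SD, n = 5), a ratio of 26.7. On the log2 scale the difference was 6.12 (with SE 1.37 and adjusted p 0.0399 by limma). The call held without hippocampus replicate 5 (0.0237) and was lost without any of the other 8 libraries, with an adjusted p of up to 0.111, and by edgeR on the recovered reads (0.168).

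None of the other tested Kcna genes passed the test, and several had reads in only some libraries of a tissue. Kcna1, the axonal channel gene, measured 582, 69.3, 309, 161 and 405 in hippocampus and 0, 340, 0 and 0 in SCO. Only SCO replicate 2 held reads of it among the SCO libraries. Its fold change was -5.82 (with SE 1.76 and adjusted p 0.116 by limma), and it was called lower without SCO replicate 2 (0.00613). That call follows from leaving out the only SCO library with reads of Kcna1. Leaving out any other library gave no call of Kcna1, with limma adjusted p of up to 0.2397. Kcna4, an A-type channel gene, measured 0, 0, 759 and 81.7 in SCO and 229 to 478 in hippocampus. Kcna2, the usual partner of Kcna1, measured 279 to 991 in SCO and 0 to 550 in hippocampus, where replicate 1 was at 0. Kcna3 held 379 in SCO replicate 4 and 0 in the other SCO libraries, so its SCO mean of 94.9 was 0 without that library. Kcna6 ranged from 198 to 1538 in SCO and from 114 to 616 in hippocampus.

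**Figure D3:**
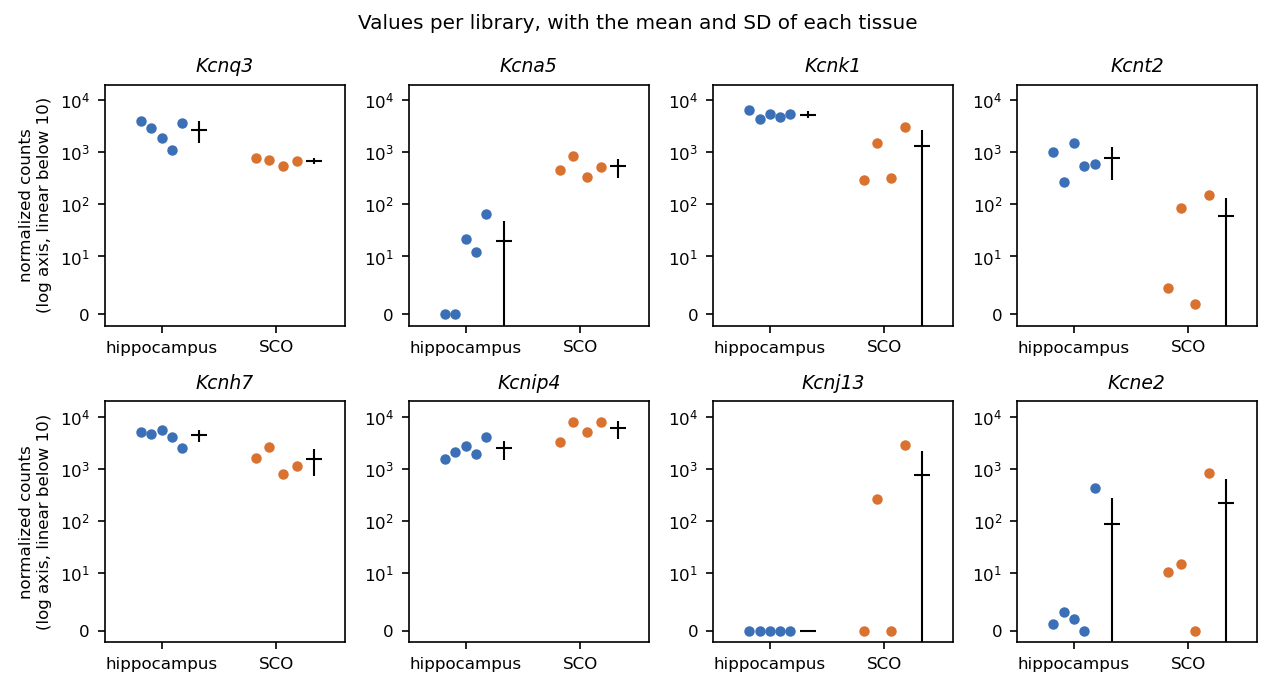
Normalized counts per library (points; vertical log axis, linear below 10) of 8 potassium channel genes in hippocampus and SCO, with the mean and SD beside the points. The tissues separate for Kcnq3, Kcna5, Kcnk1 and Kcnt2, meet for Kcnh7 and Kcnip4, and rest on 1 or 2 libraries for Kcnj13 and Kcne2.

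Kcnd2 and the Kcnip genes, the pore and the calcium-binding auxiliary subunits of A-type channels, were measured in every library of both tissues. Kcnd2 measured 8896, 5190, 4207, 4776 and 6924 in hippocampus and 4285, 6930, 6138 and 6246 in SCO. These ranges nested within each other, and the log2 fold change was 0.01 (with SE 0.27 and adjusted p 0.991 by limma), whose sign turned under other scalings. Kcnip4 measured 1558, 2131, 2745, 1893 and 4000 in hippocampus and 3323, 7736, 5008 and 7818 in SCO. SCO replicate 1 lay below hippocampus replicate 5, and the other SCO libraries lay above all hippocampus libraries. Its log2 fold change was 1.27 (with SE 0.36 and adjusted p 0.0954 by limma). Kcnip1 leaned the same way, at 2079 to 7077 in SCO and 1301 to 3934 in hippocampus (log2 fold change 1.06, SE 0.42 and adjusted p 0.254 by limma). Kcnip3, also known as the transcriptional repressor DREAM, ranged from 1383 to 5245 in SCO and from 1956 to 6870 in hippocampus. Kcnip2, Kcnd1 and Kcnd3 also overlapped between tissues.

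Of the remaining voltage-gated genes, those of fast-spiking and delayed rectifier currents did not pass the adjusted test. Kcnc2, a channel gene of fast-spiking interneurons, measured 457 to 1557 in hippocampus and 2.98 to 771 in SCO (log2 fold change -3.78, SE 1.32 and adjusted p 0.181 by limma). Kcnb2, a delayed rectifier gene, measured 1680 to 4998 in hippocampus and 128, 2277, 565 and 1216 in SCO (-2.05, SE 0.73 and adjusted p 0.189 by limma). In both genes SCO replicate 2 was the highest SCO library. Kcnc1, a relative of Kcnc2, measured 5.97, 211, 644 and 1.12 in SCO and 32.2 to 702 in hippocampus. Kcnc4 was low in both tissues, with at most 361 in any library.

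The silent subunits that modify Kcnb channels had large gaps between libraries, and none of the 9 passed the test. Kcnv1 measured 1160, 342, 1126, 1061 and 1153 in hippocampus and 0, 91.5, 109 and 462 in SCO, a log2 fold change of -4.25 (with SE 1.48 and adjusted p 0.181 by limma). Only SCO replicate 4 overlapped with hippocampus, through replicate 2. Kcnf1 measured 68.7 to 729 in hippocampus and 2.98, 0, 343 and 264 in SCO (-3.86, SE 1.73 and adjusted p 0.320 by limma). The 3 Kcns genes had fold changes between -3.49 and -2.48. Kcns2 held 725 in SCO replicate 2 and 0 in the other SCO libraries, against 14.8 to 110 in hippocampus (-3.405, SE 1.955 and adjusted p 0.4564 by limma). It was called lower without SCO replicate 2 (limma adjusted p = 0.0277). That call follows from leaving out the only SCO library with reads of it. Kcng4 held 821 and 406 in SCO replicates 1 and 2, 0 in replicates 3 and 4, and at most 2.06 in hippocampus (limma adjusted p = 0.394). Kcng1 measured 110 in SCO replicate 1 and 0 in the other SCO libraries, against 0 to 394 in hippocampus. Kcng2 held 706 in SCO replicate 1, which put its SCO mean of 214 above the hippocampus mean of 131. The SCO mean of Kcns2, 181, likewise lay above the hippocampus mean of 64.5, and without SCO replicate 2 it was 0. Kcng3 stayed at or below 47.9 in all libraries.

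Among channels gated by internal ions, Kcnt2 separated the tissues. Kcnt2 (ENSMUSG00000052726.15, chr1:140246158-140612067 on the plus strand), a sodium-activated channel gene, measured 1015, 269, 1526, 544 and 589 in hippocampus and 4.48, 84.2, 1.83 and 151 in SCO. All SCO libraries lay below the lowest hippocampus library, and SCO replicates 1 and 3 were close to the worth of 3 reads. The hippocampus mean was 13.1 times the SCO mean of 60.4, which was 30.2 without SCO replicate 4. The log2 fold change was -4.98 (with SE 1.22 and adjusted p 0.0586 by limma), and the gene was called without SCO replicate 4 (0.0284). Leaving out any of the other 8 libraries gave no call of Kcnt2, with limma adjusted p of up to 0.139. Its relative Kcnt1 did not separate: SCO replicates 2 and 4 held 724 and 1918, replicates 1 and 3 held 2.98 and 16.4, and hippocampus spanned 1.65 to 757. Its SCO mean of 665 was 248 without replicate 4.

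Kcnma1, the large-conductance calcium-activated channel gene, measured 5332, 4678, 541 and 3548 in SCO and 3056 to 5153 in hippocampus. SCO replicate 3 alone lay low, and without it the fold change turned from -0.51 (with SE 0.60 and adjusted p 0.685 by limma) to 0.25. Its neuronal auxiliary subunit Kcnmb4 measured 784 to 2252 in hippocampus and 213, 738, 267 and 862 in SCO (-1.50, SE 0.53 and adjusted p 0.186 by limma). Kcnmb3 held 416 in SCO replicate 2 and 2.24 in replicate 4, with 0 reads in all hippocampus libraries, and its SCO mean of 105 was 0.746 without replicate 2. Kcnn2, the small-conductance channel gene with the most even values, measured 1473 to 2649 in SCO and 1102 to 2351 in hippocampus. Kcnn3, also a small-conductance channel gene, measured 17.9, 1385, 2251 and 747 in SCO and 248 to 1550 in hippocampus, so SCO held both the lowest and the highest library. Kcnn1 and Kcnn4 ranged from 8.86 to 357 and from 66.4 to 604 in SCO, and from 55.7 to 821 and from 4.02 to 408 in hippocampus. Kcnmb2 overlapped between tissues as well, and Kcnmb1 held 0, 2.95, 0 and 0 in SCO against 0 to 201 in hippocampus. None of the 4 Kcnn genes was called, with 2 fold changes on each side of 0.

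The inward rectifiers include genes that mark glia, pericytes and choroid plexus. Kcnj10 and Kcnj16, whose products buffer potassium in astrocytes and other glia, measured 32.5 to 1031 and 669 to 2022 in SCO, and 282 to 846 and 10.3 to 805 in hippocampus. Kcnj16 overlapped between tissues through SCO replicate 2 and hippocampus replicates 1 and 3 (log2 fold change 1.97, SE 1.17 and adjusted p 0.474 by limma). Radial glia and astrocyte markers summed to 156817 to 320550 in SCO and 144960 to 188599 in hippocampus, and ependymal markers to 18535 to 35767 and 2792 to 5235. The 10 radial glia and astrocyte markers did not move together. Vim and Ttyh1 were called higher in SCO and Slc1a2 lower, beside 1.71% and 1.34% of all genes tested. Kcnj8, a pericyte channel gene, measured 456 to 2583 in SCO and 234 to 1391 in hippocampus, beside pericyte and smooth muscle markers of 15653 to 30154 and 11412 to 21537. The part of these cell types in the channel values was not tested.

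Kcnj13, a channel gene of choroid plexus epithelium, measured 0, 260, 0 and 2835 in SCO and 0 in all 5 hippocampus libraries. It therefore rested on SCO replicates 2 and 4, and its SCO mean of 774 was 86.6 without replicate 4 and 945 without replicate 2. Choroid plexus markers (8 genes) summed to 12868, 10838, 9164 and 184896 in SCO replicates 1 to 4 and to 310 to 14279 in hippocampus. SCO replicate 4, the library with the most Kcnj13, also had the highest marker sum. Of these markers Kl was at 0 in all SCO libraries, and Otx2 stood at 7705 to 8708 in all 4. Kcne2, an auxiliary subunit of the same epithelium, measured 10.4, 14.8, 0 and 837 in SCO and 1.25, 3.30, 2.06, 0 and 431 in hippocampus. Its high values fell in SCO replicate 4 and hippocampus replicate 5, and its SCO mean of 216 was 8.40 without SCO replicate 4. Ttr measured 171310 and 7234 in those libraries, while hippocampus replicate 2 held more Ttr, 12985, and a Kcne2 value of 3.30. Limma gave adjusted p of 0.325 for Kcnj13 and 0.737 for Kcne2.

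**Figure D4:**
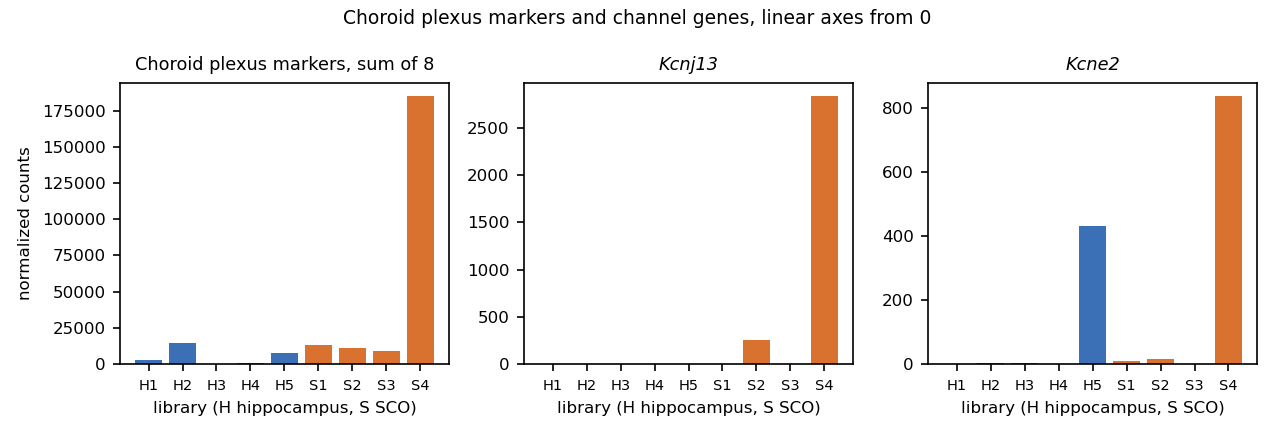
Summed normalized counts of 8 choroid plexus markers (left) and normalized counts of Kcnj13 (middle) and Kcne2 (right) in each library (bars, linear axes from 0; H hippocampus, S SCO). SCO replicate 4 holds the highest bar in all 3 panels, at 184896, 2835 and 837.

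Kcnj3, which encodes a G protein-gated inward rectifier of neurons, measured 1310, 1175, 2072, 367 and 154 in hippocampus and 4.48, 440, 0 and 388 in SCO. SCO replicates 2 and 4 lay within the hippocampus range and replicates 1 and 3 far below it (log2 fold change -4.51, SE 1.78 and adjusted p 0.247 by limma). Its partner Kcnj6 overlapped, at 226 to 452 in SCO and 29.3 to 360 in hippocampus. Kcnj15 held 564 in SCO replicate 3 and 0 in all other libraries. Kcnj11, the pore gene of ATP-sensitive channels, measured 0, 0, 283 and 266 in SCO and 0 to 796 in hippocampus. Kcnj5 held 814 in SCO replicate 4 and at most 61.8 elsewhere, and its SCO mean of 204 was 0.304 without that library. Kcnj2, Kcnj9, Kcnj12 and Kcnj14 each stood at 0 in at least 1 library of both tissues. Over the 13 tested Kcnj genes, 8 fold changes were positive and 5 negative, and 0 passed the adjusted test.

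Tandem pore channels carry background potassium current. Kcnk1 (ENSMUSG00000033998.9, chr8:125995170-126030685 on the plus strand) measured 6513, 4337, 5373, 4782 and 5372 in hippocampus and 294, 1536, 320 and 3099 in SCO. The hippocampus libraries were close together, all SCO libraries lay below them, and SCO replicates 1 and 3 were far below SCO replicate 4. The hippocampus mean was 4.02 times the SCO mean of 1312, which was 717 without SCO replicate 4. The log2 fold change was -2.67 (with SE 0.65 and adjusted p 0.0565 by limma), and the gene was called without SCO replicate 4 (0.0109). Leaving out any of the other 8 libraries gave no call of Kcnk1, with limma adjusted p of up to 0.134. Kcnk2, a mechanosensitive channel gene, measured 3768 to 4627 in SCO and 4603 to 8152 in hippocampus, with the overlap limited to SCO replicate 1 and hippocampus replicate 1 (-0.47, SE 0.23 and adjusted p 0.350 by limma). Kcnk10, a gene of the same group, measured 769 to 2291 in SCO and 1324 to 2580 in hippocampus (-0.83, SE 0.38 and adjusted p 0.337 by limma). The remaining Kcnk genes had at most 843 normalized counts in any library, a value of Kcnk9 in SCO replicate 1. Kcnk3, Kcnk4 and Kcnk9 had reads in all 9 libraries, whereas Kcnk5, Kcnk6, Kcnk7, Kcnk12 and Kcnk13 were at 0 in some. Of the 11 tested, 5 had a positive and 6 a negative fold change.

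The accessory genes Kcnab1, Kcnab2 and Kcnab3, beta subunits of Kcna channels, overlapped between tissues, with limma adjusted p of at least 0.497. Kcne4 measured 0, 496, 417 and 383 in SCO and 587, 0, 266, 548 and 0 in hippocampus, so both tissues held libraries at 0. Kcne1 held 126 in hippocampus replicate 5 and 0 in all 8 other libraries.

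Partner proteins of the channels, a list of 29 genes, were called lower in 3 cases and higher in 0, beside 1.34% and 1.71% of all genes tested. Cntn2, the axonal adhesion molecule that gathers Kcna channels beside nodes, measured 3409 to 6916 in hippocampus and 28.3 to 1234 in SCO (log2 fold change -3.95, SE 0.92 and adjusted p 0.0482 by limma). Dlg2, a scaffold that binds channel tails, measured 11637 to 21054 in hippocampus and 1862 to 5756 in SCO (-2.24, SE 0.33 and adjusted p 0.00480 by limma). Ank3, the ankyrin that holds Kcnq channels at the axon initial segment, measured 8268 to 11799 in hippocampus and 3427 to 5494 in SCO (-1.21, SE 0.22 and adjusted p 0.0165 by limma). For these 3 genes, no SCO library reached the lowest hippocampus library. A list of 27 other genes of potassium transport held 1 called gene, which was lower in SCO, beside 3.05% of all genes called in either direction. The medians of these lists were -0.17 and 0.03.

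Levels of different members were compared per kilobase of exon. In SCO the highest means were those of Kcnip4 (1646 ± 605 normalized counts per kilobase, SD, n = 4), Kcnd2 (1145 ± 220), Kcnip3 (920 ± 531), Kcnk2 (837 ± 74.5) and Kcnip1 (726 ± 330). In hippocampus they were those of Kcnk1 (2360 ± 366 per kilobase, SD, n = 5), Kcnip3 (1349 ± 508), Kcnk2 (1182 ± 282), Kcnd2 (1164 ± 371) and Kcnip4 (680 ± 265). Neighbours in either order lay within their spread, except in hippocampus, where Kcnk1 exceeded Kcnip3, and Kcnd2 exceeded Kcnip4, by more than either SD. Kcnk1 stood seventh in SCO, at 587 ± 593 per kilobase. Kcnq3 had 46.7 ± 6.49 per kilobase in SCO and 184 ± 81.4 in hippocampus, and Kcna5 had 186 ± 74.5 and 6.98 ± 9.51.

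**Figure D5:**
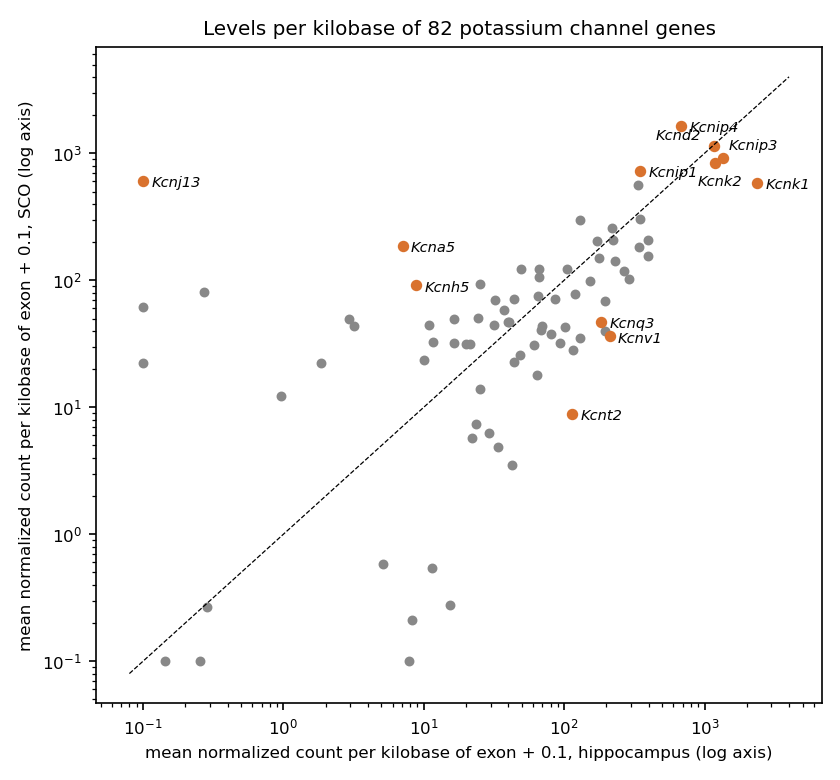
Mean normalized count per kilobase of exon (log axes, 0.1 added) of 82 members in hippocampus (horizontal) and SCO (vertical), with the dashed line marking equal levels and 12 genes named. Kcnip4 leads in SCO at 1646 and Kcnk1 in hippocampus at 2360, and Kcna5 and Kcnj13 lie far above the line.

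Many members were read in some libraries of a tissue and not in others. Reads were found in all 9 libraries for 44 of the 86 members. Among tested genes this held for 53.0% of the members, 55.9% of all genes and 71.3% of protein-coding genes. Of the 83 tested, 37 (44.6%) stood at 0 in 1 library and at 100 or more in another of the same tissue, against 22.3% of all genes tested, and against 3410 of the 17061 protein-coding genes tested. Members with reads numbered 68 to 71 per hippocampus library and 64 to 70 per SCO library. All members together took 0.114% to 0.152% of the reads in hippocampus and 0.0904% to 0.125% in SCO. The exons or introns of 41 members overlap another annotated gene, 37 of them on the opposite strand. Overlap of exons alone was not computed, and whether reads were counted by strand is not stated in the labels. It is therefore not known whether reads of such partners entered the channel values.

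The authors' deposited table carries an adjusted p for 70 of the members and has 11 under 0.05, which is 15.7% beside 12.7% of all genes with one. In the authors' deposited table the 4 genes Kcnj13, Kcna5, Kcng4 and Kcnip4 were higher in SCO (5.71%, beside 6.98% of all genes), and the 7 genes Kcnq3, Kcnh7, Kcnh3, Kcnt2, Kcns3, Kcnk1 and Kcnq5 lower (beside 5.69%). DESeq2 on the recovered reads called the same 11 genes among 83 members, 13.3% beside 9.61% of all genes tested. EdgeR on the same reads called Kcnq3 alone, 1 of 83, beside 1.79% of all genes. Kcnq3 was thus called by limma, DESeq2 and edgeR, and Kcna5 by limma and DESeq2. Kcns3, called in the authors' deposited table but not by limma, measured 202, 231, 227, 12.1 and 4.19 in hippocampus and 7.46, 17.7, 13.7 and 4.48 in SCO.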

How the data were processed

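Bulk RNA sequencing of P0 SCO and hippocampus was analysed. Per the submitters' processing notes, FastQC, HISAT, HISAT2, featureCounts and DESeq2 were used with GRCm38. Their versions and the strand setting were not stated in the labels. The per-library values are a deposited normalized signal, read counts divided by a size factor of each library. Per the file headers, the authors' comparison holds a log2 fold change and its error, a test score, a p-value and an adjusted p-value. Dividing by the worth of 1 read gave whole reads for 100% of values (tolerance 1e-06). No column belonged to another series (0).

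Tissues were compared by limma-trend after log2(value + 1), keeping genes whose mean reached 1 in SCO or hippocampus, with Benjamini-Hochberg adjustment over 28150 genes and calls at 0.05. This scale shrinks the change of genes that are low in every library. For members at 0 in part of a tissue, its fold change can be larger or smaller than that of a count model. Kcna5 was 6.12 by limma and 4.72 by DESeq2, and Kcna1 was -5.82 and -1.85. Kcng4 went the other way, at 4.03 by limma and 8.92 by DESeq2. The design named edgeR for counts. Since the table holds normalized values, its rule for these was used, and edgeR and DESeq2 on recovered reads are alternatives, beside other pseudocounts, filters, scalings, blocks and libraries left out. The tests were checked on simulated counts in which only genes of higher mean were changed, so this check does not cover low genes. No covariate was used. Precision is bounded by the worth of 3 reads.

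Named members were those called, the largest non-overlapping fold change of each subfamily with a mean of at least 20, the 5 highest per kilobase in each tissue, and 5 known markers of other cell types. Further members, among them Kcnh7, Kcna1 and Kcnk10, were named after their values were seen. Some genes are not reported here and are left out of the figures, though they count in the totals. Members and lists were chosen with earlier results of these data known. Exon lengths and positions came from GENCODE M21 for GRCm38, where 81 of 86 members matched by versioned identifier and 86 without the version.

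Marker lists not described elsewhere gave these sums, SCO first. Interneurons spanned 7879 to 61249 and 22306 to 42614, the oligodendrocyte lineage 4057 to 9675 and 1585 to 5978, microglia 26094 to 34029 and 11700 to 18530, and endothelium 11631 to 18176 and 6773 to 10547. The interneuron markers did not move together. Gad1 averaged 19239 in SCO and 6778 in hippocampus. Dlx1, Dlx2 and Lhx6, 3 of the 8 markers, were called lower in SCO and 0 higher, beside 1.34% and 1.71% of all genes tested. Meninges spanned 1558 to 13106 and 1952 to 9361, and red blood cells 45492 to 79148 and 4233 to 27027.

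Versions were limma 3.58.1, DESeq2 1.42.0 and edgeR 4.0.16 under R 4.3.3, and pandas 2.3.3 and matplotlib 3.10.9 under Python 3.11.15.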

Additional observations from a re-analysis of the deposited data

Results flagged for a closer look

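In 7 of 65 groups looked at, 1 library lay apart from the rest of its tissue on the log2 scale, by a gap whose share of the range exceeded Dixon's critical value. The nominal rate of this rule, about 1 in 20, is for independent normal values. It is not the rate by chance here, since many values were 0 and many genes were named after their values were seen. Hippocampus replicate 5 was the lowest of its tissue for Kcnj16 at 10.3 and the highest for Kcne2 at 431. Hippocampus replicate 1 was the lowest for Kcnf1 at 68.7 and for Kcna2 at 0. Hippocampus replicate 2 was the lowest for Kcnv1 at 342. Among the SCO libraries, replicate 2 was the highest for Kcna1 at 340, and replicate 4 the lowest for Kcnh5 at 0.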

How the results depend on the processing

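Of the results on named genes, 631 kept direction and side of the threshold across alternatives, 23 moved past it, 25 fell back from it and 14 changed sign. Most named genes were not called in the main fit, and the 25 were all of Kcna5 and Kcnq3, which were. Counting the main fit, Kcnq3 was called in 11 of 22 settings and Kcna5 in 8 of 22. No member was called higher with a pseudocount of 0.5, without a filter, by edgeR or with either replicate block (0 each), and 4 were by DESeq2. Members called lower numbered 4 with a mean of at least 10 and with upper quartile scaling, 2 with TMM and without SCO replicate 4 and hippocampus replicate 2, 7 by DESeq2 and 0 with either block. The member median was -0.22 by edgeR, -0.19 by DESeq2, -0.32 with the title number as replicate block and -0.94 without that pair of libraries. Kcnk7 was the member called higher without that pair (limma adjusted p = 0.00964), and Kcna5 and Kcnq3 were not called there. Upper quartile scaling moved the median of all genes from -0.04 to -0.14. All genes called came to 503 by edgeR, 2706 by DESeq2, 1 with the title number block and 0 with the bracket number block. With these blocks, 15 and 6 members had an unadjusted limma p under 0.05. Only SCO replicates 2 and 3 share a bracket number with a hippocampus library, so that block leaves too few libraries for a call. Its lack of calls therefore cannot tell whether the results depend on the block. Partner genes called were 6 by DESeq2 and 0 with either block. Transport genes called were 0 by edgeR, 3 by DESeq2, 0 with either block and 2 without the pair. Kcnd2 turned to -0.024 with TMM, -0.11 with upper quartile scaling, -0.054 by edgeR, -0.024 by DESeq2 and -0.065 without the pair, and Kcne2 to -0.39 without the pair. The cause was not tested.

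Leaving out 1 library at a time gave 498 to 1077 genes called, 0 to 1 members higher and 0 to 3 lower, a member median of -0.96 to -0.39, 1 to 3 partner genes and 0 to 3 transport genes. Called members numbered 0 without hippocampus replicate 1, 2 or 3 or SCO replicate 1 or 3. Over these fits Kcnd2 ranged from -0.11 to 0.16, Kcne2 from -0.23 to 3.08 and Kcnma1 from -0.85 to 0.25. Libraries with the same title number correlated at -0.000601, -0.0248, 0.0189 and -0.0289 in their deviations from the tissue means. SCO replicate 2 and hippocampus replicate 2, at -0.0248, also share a bracket number. The other bracket pair, SCO replicate 3 with hippocampus replicate 4, correlated at 0.0569, the highest of all pairs. Pairs sharing neither number spanned -0.0329 to 0.034. Whether any pair shares an origin was not tested, and both blocks rest on shared numbers alone. Depth limits members near 0, for which a fold change depends on the pseudocount.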

Other observations

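Kcnu1, whose channel is known from sperm, measured 509, 1552, 645, 1497 and 799 normalized counts in hippocampus and 527, 7.38, 290 and 931 in SCO. Reads were present in all 9 libraries, and SCO replicate 2 was the lowest. The log2 fold change was -2.28, and -0.79 without that library, with adjusted p of 0.402 and 0.574 by limma. Kcnh4, Kcnj13 and Kcnk6 had unadjusted limma p values just above 0.05 (0.0502, 0.0509 and 0.0510) with SCO higher. Their adjusted p values by limma were 0.3231, 0.3245 and 0.3245, so none was called. Kcnh4 measured 47.5 to 362 in SCO and 0 to 119 in hippocampus. Kcnk6 measured 0, 75.3, 234 and 59.3 in SCO and 0, 0, 36.1, 0.366 and 0 in hippocampus.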
